A study of Arabidopsis thaliana x Arabidopsis arenosa and Arabidopsis suecica with 6 samples.

Results

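A set of 7 copper and iron genes, centred on superoxide dismutase, was followed in leaves of Arabidopsis allotetraploids. They are the iron superoxide dismutase gene FSD1 (AT4G25100), the copper/zinc superoxide dismutase genes CSD1 (AT1G08830) and CSD2 (AT2G28190), the gene of their copper chaperone CCS (AT1G12520), the blue copper-binding protein gene BCB (AT5G20230), the copper transporter gene COPT1 (AT5G59030) and the copper chaperone gene CCH (AT3G56240). The 7 genes, of 17885 in the deposited tables, were picked by gene code with their values already known, so their levels are given as a description with no test. Tests are given only for other genes of copper and iron handling, which were listed with earlier results of these data known.

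Superoxide dismutases convert superoxide to hydrogen peroxide and use copper and zinc, iron or manganese at the active site. In A. thaliana, when copper is scarce, the transcription factor SPL7 is known to raise FSD1, CCH and the microRNA miR398, and miR398 lowers the messenger RNAs of CSD1, CSD2 and CCS. The leaf then replaces copper/zinc superoxide dismutase with the iron enzyme in the chloroplast, which leaves copper for plastocyanin, the electron carrier of photosynthesis.

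The study measured poly(A) RNA of mature leaves collected before bolting in 6 kinds of allotetraploid, plants that combine genomes of A. thaliana (T) and A. arenosa (A), by Illumina sequencing. TATT (AlloF8 × A. thaliana) and TTTA (A. thaliana × AlloF8) carry 3 T genomes and 1 A genome and form the class T3A1. TAAA (AlloF8 × A. arenosa) and AATA (A. arenosa × AlloF8) carry 1 T genome and 3 A genomes and form the class T1A3. As is natural A. suecica. AlloF8 is an allotetraploid resynthesized from the same 2 species and kept to generation F8. As and AlloF8 hold equal numbers of T and A genomes. The mother of each cross is not given, and all plants were grown under long days with light for 16 h and dark for 8 h. Each cross has 3 replicate libraries, and As and AlloF8 have 2 each, which makes 16 libraries. Nothing says that they came from separate plants, so spreads and p-values measure only the spread between these libraries. For As against AlloF8 the p-values rest on a spread shared over genes, as given below.

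The values are RPKM, reads scaled to transcript length and library size, given for the T and the A copy (homoeolog) of each transcript. A total is T plus A, and a T share is T as a percentage of the total. Summed RPKM was 613044 to 781415 per library, and read depth is unknown. All 112 totals of the 7 genes had a value. The leaf genes LHCB1.3, CA1 and PSBS were read in all 16 libraries, LHCB1.3 at 4353 to 26231 RPKM, while the flower genes AP3, PI and AG and the root genes LRX1 and IRT1 had no row in these tables. The AlloF8 replicates stood apart from each other, with 4353 RPKM of LHCB1.3 in replicate 1 and 21951 RPKM in replicate 2. In whole leaves, fewer cells of a type and less RNA per cell cannot be told apart.

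The mature miR398 strands are shown because CSD1, CSD2 and CCS are known targets of this microRNA. They are RefSeq sequences on TAIR10.1, 5′ to 3′, with the seed (bases 2 to 8) in capitals. The 3 MIR398 genes share 1 seed, and the strands of MIR398b and MIR398c are identical and differ from that of MIR398a in the last base.
miR398a-3p (chr2:1041012-1041032, plus strand): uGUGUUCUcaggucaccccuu
miR398b-3p (chr5:4691107-4691127, plus strand): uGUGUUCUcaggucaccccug
miR398c-3p (chr5:4694778-4694798, plus strand): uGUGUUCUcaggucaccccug

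The best match to miR398b-3p without bulges in each messenger RNA was found by a penalty of 1 for a mismatch and 0.5 for a G-U pair. The sites below are A. thaliana sequence from TAIR10.1, 5′ to 3′ on the gene's strand, and capitals mark bases that pair with the microRNA, G-U pairs included. They are the sites of the 4 genes of the set for which miR398 has been described as a regulator, and of COX5B-1, a subunit gene of mitochondrial cytochrome c oxidase that is another known target.
CSD1 (5′ UTR, chr1:2827177-2827685, plus strand, across an intron): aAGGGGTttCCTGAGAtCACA
CSD2 (coding, chr2:12015572-12015592, plus strand): TGcGGGTGACCTGGGAAacat
CCS (coding, chr1:4267521-4267541, minus strand): attGGGaGACCTGGGAACACt
BCB (5′ UTR, chr5:6826592-6826612, plus strand): aGGGGGTGACCTGAGttCtTc
COX5B-1 (5′ UTR, chr3:5299204-5299224, plus strand): aAGGtGTGACCTGAGAATcac

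The CSD1 site had a penalty of 4, a level reached by 0.0287% of 31341 genes. The penalties of CCS and COX5B-1 were 5.5, reached by 1.57% of genes, and that of BCB was 6, reached by 4.68%. CSD2 had a penalty of 6.5, reached by 12.2% of genes, and FSD1, which is not a known target, had a best match with the same penalty. The best matches of COPT1 and CCH had penalties of 7.5 and 9, reached by 51.4% and 97.2% of genes. By this measure CSD1 stood out from most genes, and CSD2 and FSD1 could not be told apart. A match is a description of letters and does not show that the site is used.

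The core of the SPL7 binding motif, GTAC, which reads the same on both strands, was counted in the 250 bases before each gene on TAIR10.1. It occurred 2 times before CSD1, 1 time before FSD1, CCS, BCB and CCH, and 0 times before CSD2 and COPT1. At least 1 GTAC was found in 34.3% of 27443 promoters of this length, and at least 2 in 7.67%.

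FSD1, the iron superoxide dismutase of the chloroplast, had 289.1 and 323.8 RPKM in As and 11.7 and 5.62 RPKM in AlloF8. In the crosses it had 21.7, 12.3 and 11.4 RPKM in TATT, 4.20, 7.88 and 6.62 RPKM in TTTA, 39.2, 36.6 and 56.9 RPKM in TAAA, and 3.77, 25.6 and 3.09 RPKM in AATA. Both As libraries were above all 14 others, and the lower As library was 5.08 times the highest of them, a TAAA library. FSD1 averaged 306.5 ± 24.6 RPKM in As and 8.66 ± 4.30 RPKM in AlloF8 (SD, n = 2 each), a log2 difference of 5.15 after adding 0.5 RPKM.

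Both copies of FSD1 were high in As. The T homoeolog had 130 and 145 RPKM in As and 9.91 and 4.62 RPKM in AlloF8, a log2 difference of 4.24. The A homoeolog had 159 and 179 RPKM in As and 1.78 and 0.995 RPKM in AlloF8, a log2 difference of 6.52. The T share of FSD1 was 44.9% and 44.7% in As and 84.8% and 82.3% in AlloF8, so the T copy made up less of the total in As.

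The tables list 4 FSD1 transcripts, which share reads, and AT4G25100.2 was used because its mean was highest. It made up 65.7% and 65.5% of the summed FSD1 rows in As and 44.6% and 48.0% in AlloF8. Transcript AT4G25100.1 was listed at 0 in As replicate 1 and made up 0.598% of the rows in As replicate 2, while it made up 21.8% and 23.9% in AlloF8. Summing the transcripts gave a log2 difference of 4.69 between As and AlloF8 for FSD1.

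CSD1, the cytosolic copper/zinc superoxide dismutase, ran the other way, with 15.97 and 11.03 RPKM in As and 125.1 and 235.7 RPKM in AlloF8. It had 200.6, 192.5 and 200.8 RPKM in TATT, 270.0, 310.0 and 270.3 RPKM in TTTA, 472.4, 157.7 and 355.5 RPKM in TAAA, and 393.5, 218.6 and 326.6 RPKM in AATA. Every other library was above both As libraries. The log2 difference between As and AlloF8 was -3.64, with means of 13.5 ± 3.49 RPKM in As and 180 ± 78.2 RPKM in AlloF8 (SD, n = 2 each). It was alike in both copies, -3.57 in the T homoeolog and -3.62 in the A homoeolog.

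CSD2, the copper/zinc superoxide dismutase of the chloroplast, had 12.1 and 10.7 RPKM in As and 103.3 and 973.3 RPKM in AlloF8. It had 615.5, 160.5 and 467.9 RPKM in TATT, 700.0, 485.0 and 733.2 RPKM in TTTA, 640.1, 155.0 and 524.3 RPKM in TAAA, and 775.1, 338.1 and 779.6 RPKM in AATA. The As libraries were the lowest of the 16, and the AlloF8 libraries were far apart from each other. The log2 difference between As and AlloF8 was -4.74, and it was -6.35 to -3.12 over the alternatives tried, lowest without AlloF8 replicate 1 and highest without AlloF8 replicate 2.

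CCS, the chaperone that delivers copper to both copper/zinc dismutases, had 2.67 and 2.98 RPKM in As and 5.98 and 30.4 RPKM in AlloF8. It had 29.3, 19.8 and 34.1 RPKM in TATT, 35.1, 28.4 and 32.7 RPKM in TTTA, 29.7, 13.9 and 49.0 RPKM in TAAA, and 24.8, 15.9 and 47.6 RPKM in AATA. The As values lie just above 2 RPKM, under which no nonzero total is listed in any table, and AlloF8 replicate 1 was closest to them. The log2 difference between As and AlloF8 was -2.09, and its range over the alternatives was -3.22 to -0.96. All these values are of transcript AT1G12520.2, used because its mean was highest. AT1G12520.1 had 3.05 to 4.37 RPKM in As and 13.1 to 35.1 RPKM in AlloF8. AT1G12520.3 had 2.71 to 5.41 RPKM in As and 18.0 to 31.3 RPKM in AlloF8, so the closeness of AlloF8 replicate 1 to As depends on the transcript. Summing the transcripts gave a log2 difference of -2.47. The level of CCS in As therefore rests on values near the lowest the tables hold.

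BCB, a blue copper-binding protein tied to stress and lignin formation, showed the largest difference of the set. It had 5.42 and 4.40 RPKM in As and 853.6 and 555.6 RPKM in AlloF8, a log2 difference of -7.00. The crosses had 729.9, 1364 and 703.6 RPKM in TATT, 550.4, 656.1 and 1107 RPKM in TTTA, 1158, 1521 and 963.4 RPKM in TAAA, and 797.9, 783.0 and 603.2 RPKM in AATA. The lowest of the 14 other libraries was 101 times the higher As library, so the As libraries stood alone.

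CCH, a copper chaperone linked to copper export from ageing leaves, was high in As with 802.5 and 496.7 RPKM, against 281.8 and 132.9 RPKM in AlloF8. It had 144.2, 333.7 and 199.0 RPKM in TATT, 120.6, 224.9 and 205.0 RPKM in TTTA, 169.6, 396.4 and 275.8 RPKM in TAAA, and 87.7, 237.8 and 111.5 RPKM in AATA. The As libraries were the highest 2, and the lower As library was 1.25 times the highest of the others. The log2 difference between As and AlloF8 was 1.70.

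COPT1, a copper importer of the plasma membrane, was the member that did not stand apart in As. It had 76.6 and 48.2 RPKM in As and 67.4 and 47.2 RPKM in AlloF8. The crosses had 55.1, 73.7 and 74.6 RPKM in TATT, 60.6, 76.0 and 92.8 RPKM in TTTA, 82.3, 69.4 and 77.0 RPKM in TAAA, and 55.7, 87.2 and 55.2 RPKM in AATA. The As range overlapped that of every other sample, although AlloF8 lay below TAAA, and the log2 difference between As and AlloF8 was 0.11.

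**Figure D1:**
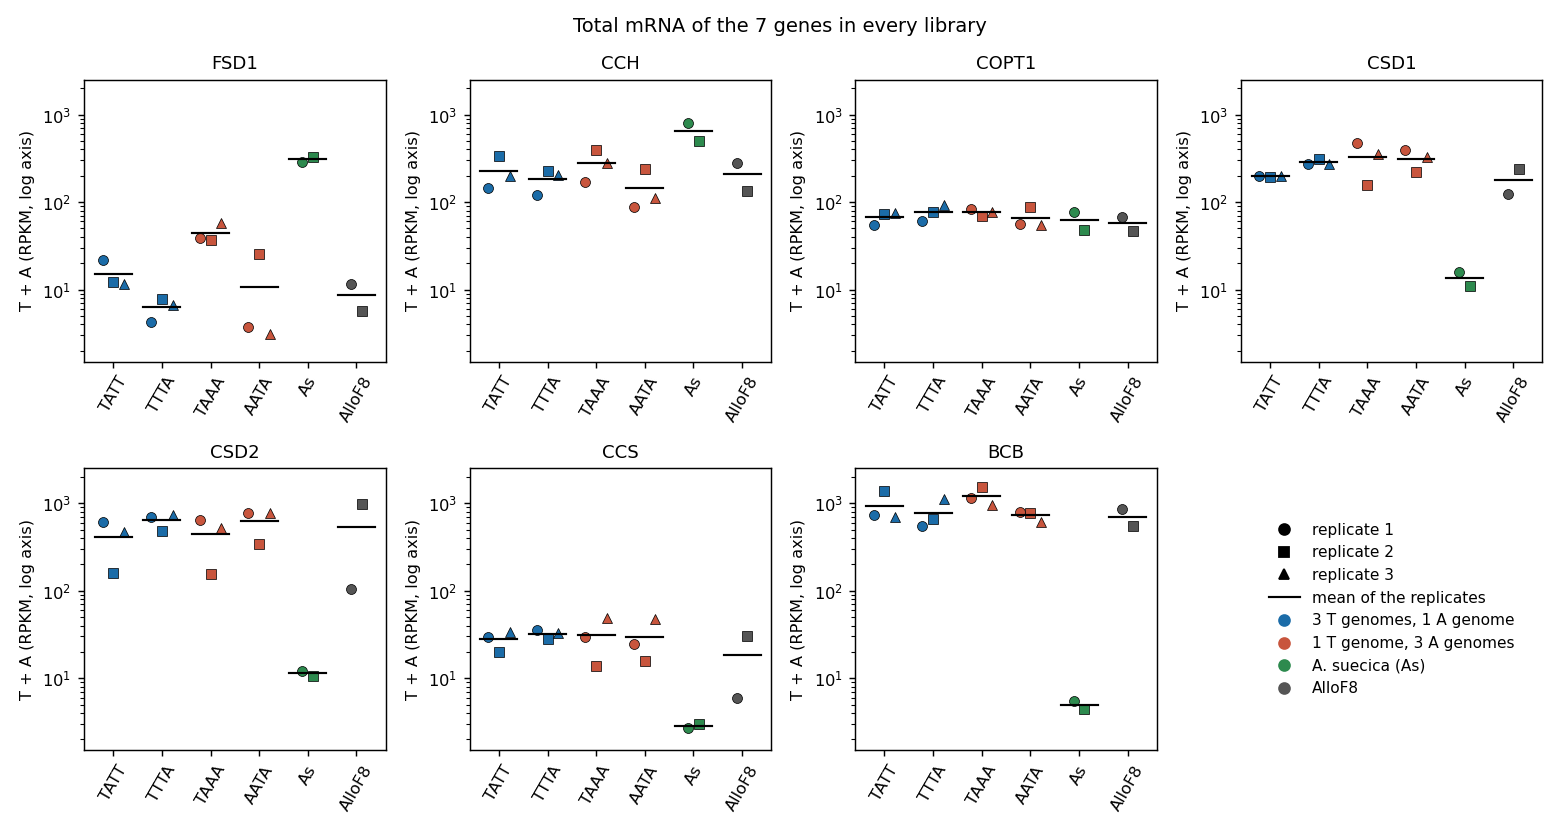
Total RPKM (log axis) of the 7 genes in each of the 16 libraries, by sample, with 1 point per library and a bar at the mean of each sample. FSD1 and CCH are highest in both As libraries, CSD1, CSD2, CCS and BCB are lowest there, and COPT1 is at 48.2 and 76.6 RPKM in As, within the range of the other samples.

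In all, 6 of the 7 members had both As libraries outside the range of the other 14, with 2 of them above and 4 below. Over 11514 genes with a value in every library this held for 18.5%, with 4.91% above and 13.6% below. The members were chosen with these values known, so nothing is read from the comparison of the shares.

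By sample mean, FSD1 was highest in As, followed by TAAA, then TATT, then AATA, then AlloF8 at 8.66 ± 4.30 RPKM, and lowest in TTTA at 6.23 ± 1.87 RPKM. The gap between As at 306.5 ± 24.6 RPKM (SD, n = 2) and TAAA at 44.2 ± 11.0 RPKM (SD, n = 3) was larger than either spread. TAAA and TATT, at 15.1 ± 5.66 RPKM, did not overlap either. From TATT down, each sample overlapped the next in its range, and AATA at 10.8 ± 12.8 RPKM was set by replicate 2.

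The balance of superoxide dismutase messages was taken over the 7 such genes listed (FSD1 to FSD3, MSD1 and CSD1 to CSD3), which per length can be summed. Each gene entered by its 1 transcript with the highest mean. For FSD1 this transcript held 65.7% and 65.5% of the summed FSD1 rows in As and 25.0% to 51.6% in the F1 libraries. The shares depend on this choice, and shares over all transcripts were not computed. FSD1 made up 63.6% and 76.1% of the sum in As, 3.15% and 0.400% in AlloF8, and 0.242% to 7.99% in the 12 F1 libraries. CSD1 and CSD2 together made up 6.18% and 5.12% in As, 61.6% and 86.0% in AlloF8, and 68.3% to 88.4% in the F1 libraries. Most dismutase message thus came from an iron enzyme gene in As and from copper/zinc enzyme genes in the 14 other libraries.

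The summed level of the 7 dismutase genes was 454.9 and 425.4 RPKM in As, 370.8 and 1406 RPKM in AlloF8, and 457.5 to 1322 RPKM in the F1 libraries. The As sums lie within the AlloF8 range and below all F1 sums. MSD1, the manganese superoxide dismutase of mitochondria, made up 19.3% and 11.99% of the sum in As and 6.85% to 23.4% in the other libraries. FSD1 exceeded CSD2, the other chloroplast enzyme gene of the set, by 23.8 and 30.2 times in As, while the ratio was 0.00396 to 0.236 in the other 14 libraries.

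**Figure D2:**
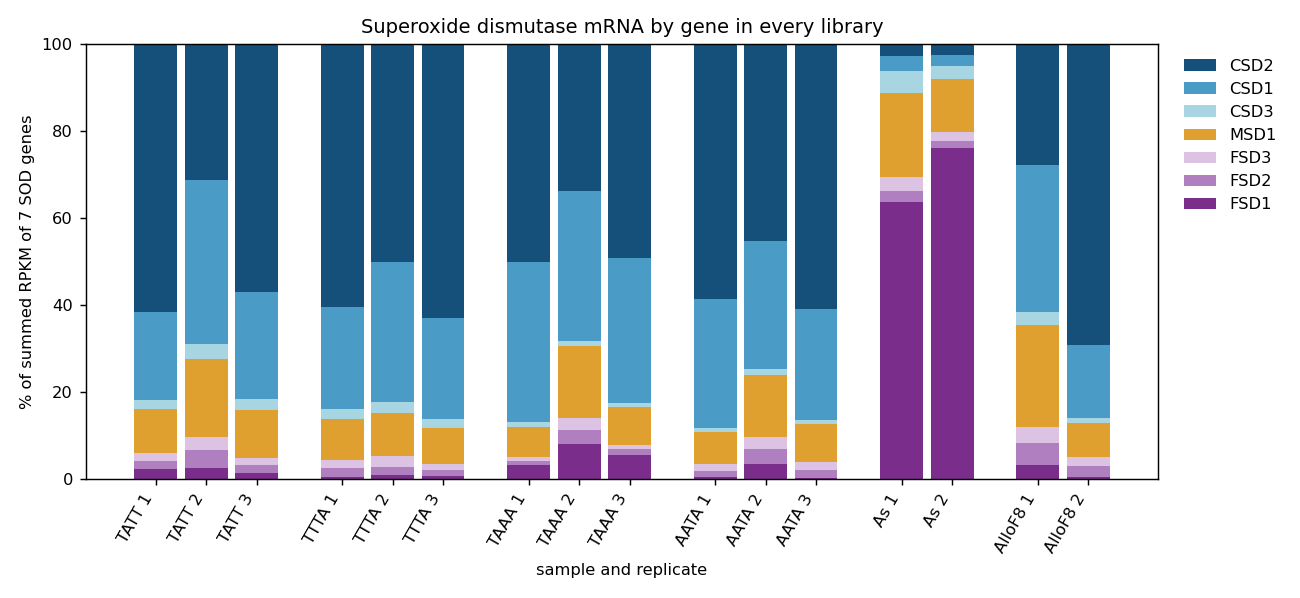
Share (%) of the summed RPKM of 7 superoxide dismutase genes held by each gene, with 1 transcript per gene and 1 stacked bar for each of the 16 libraries. FSD1 holds 63.6% and 76.1% in As and at most 7.99% elsewhere, where CSD1 and CSD2 hold 61.6% to 88.4%.

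Among the dismutase genes that were not members, none differed between As and AlloF8 by limma with Benjamini-Hochberg adjustment over all genes. FSD2, an iron superoxide dismutase of the chloroplast nucleoid, had 12.3 and 6.58 RPKM in As and 18.5 and 34.0 RPKM in AlloF8 (limma log2 difference -1.43 ± 0.59 SE, adjusted p = 0.197). FSD3, its partner, had 14.8 and 9.27 RPKM in As and 13.998 and 30.3 RPKM in AlloF8 (limma log2 difference -0.79, adjusted p = 0.698). The intervals were wide, from -2.59 to -0.26 for FSD2 and from -1.96 to 0.38 for FSD3, before adjustment.

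CSD3, the peroxisomal copper/zinc superoxide dismutase, had 22.8 and 12.9 RPKM in As and 11.4 and 16.1 RPKM in AlloF8 (limma log2 difference 0.33 ± 0.59 SE, adjusted p = 0.941). CSD3 was thus not among the genes that were low in As, in contrast to CSD1 and CSD2, though that contrast itself was not tested. MSD1 had 87.7 and 51.0 RPKM in As and 86.8 and 111 RPKM in AlloF8 (limma log2 difference -0.55, adjusted p = 0.877).

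The list of 42 other copper genes held dismutases, regulators, transporters, chaperones and copper proteins, of which 35 were listed in the tables. Of the 23 tested between As and AlloF8, limma called 0, while 4.14% of all 12618 genes were called, 1.23% higher and 2.92% lower. An unadjusted limma p under 0.05 was reached by 5 of the 23. This count cannot be set against the 4.14%, which is after adjustment, and nothing is read from it. The median log2 difference of the 23 was -0.09, beside -0.18 over all genes. The comparison rests on 2 libraries against 2. Its limma SE was nearly the same for several genes, with 0.5948 for CSD3, 0.5949 for FSD2 and 0.5949 for KIN17. A p-value of this comparison thus rests on a spread shared over genes and does not measure that of the gene itself.

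SPL7, the master regulator of copper deficiency, had 5.31 and 3.61 RPKM in As and 4.40 and 2.13 RPKM in AlloF8 (limma log2 difference 0.45, adjusted p = 0.844). In the crosses it was at 2.01 to 3.47 RPKM where it had a value, and it was listed at 0 in 3 of the 12 libraries, so the F1 crosses were not tested for it. Its levels therefore stayed near the lowest the tables hold. COX5B-1 had 16.5 and 12.3 RPKM in As and 33.8 and 50.6 RPKM in AlloF8 (limma log2 difference -1.50, adjusted p = 0.159), and it had 40.1 to 56.9 RPKM in the F1 libraries.

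Some copper genes were too often listed at 0 for the test of As against AlloF8 and are given as values, chosen after they were seen. COPT2, a copper importer related to COPT1, had 24.2 and 20.6 RPKM in As, and 5.03 RPKM in AlloF8 replicate 1 and a listed 0 in replicate 2. Its values in the F1 libraries were 2.94 to 7.83 RPKM or a listed 0. COPT1 and COPT2 are similar in sequence, and how reads were shared between them is not given in the sources used here. With listed zeros taken as 0, COPT2 was the 1 copper gene that limma called in As against AlloF8 (log2 difference 3.78). That call rests on the listed 0 and on a spread shared over genes, and nothing is concluded from it.

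YSL2, a metal-nicotianamine transporter, had 5.75 and 2.45 RPKM in As, and FRO4, a copper reductase of the root surface, had 4.41 and 3.94 RPKM in As. Neither had a value above 0 in the AlloF8 libraries. CITF1, a transcription factor of the copper deficiency response, had 7.80 RPKM in As replicate 1 and no value above 0 in any other library. All these lie close to the lowest nonzero totals. The other untested copper genes are not shown here. How many of all genes had a value in As and none in AlloF8 was not counted, so nothing is read from these values.

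The miR398 precursor genes themselves appeared in these poly(A) tables, and their rows were looked at after the other values were seen. MIR398c (AT5G14565, chr5:4694694-4694808, plus strand of TAIR10.1) had 37.0 and 23.3 RPKM in As and was listed at 0 in both AlloF8 libraries. In the crosses it was at 0, 0 and 2.93 RPKM in TATT, at 3.64, 2.23 and 0 RPKM in TTTA, and at 2.52, 0 and 0 RPKM in AATA, with no row in the TAAA table. MIR398c thus had its highest values in the As libraries, and its T share there was 84.3% and 80.2%. A link to the levels of CSD1, CSD2 and CCS was not tested.

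MIR398b (AT5G14545, chr5:4691022-4691137, plus strand) had a row only in the As table analysed here, with 42.9 and 37.3 RPKM. Its 116 bases lie within AT5G14550 on the minus strand (chr5:4691006-4694055), and since no source used here says that the reads keep their strand, reads of the 2 genes cannot be told apart. AT5G14550 had 13.9 and 11.7 RPKM in As, 7.96 and 4.57 RPKM in AlloF8 and 6.04 to 9.02 RPKM in the F1 libraries. MIR398a had no row. Mature microRNAs were not measured.

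Iron genes were listed beside the copper genes because FSD1 binds iron. Of 11 such genes, 8 were listed and 7 tested between As and AlloF8, and limma called 1. FER3, a ferritin that stores iron in the chloroplast, had 5.18 and 6.24 RPKM in As and 16.0 and 134.6 RPKM in AlloF8 (limma log2 difference -2.93 ± 0.59 SE, adjusted p = 9.87e-05). The SE was about that of CSD3 and FSD2, so the p-value does not reflect how far apart the FER3 libraries were. The As values were below both AlloF8 values, which differed widely from each other, and the call was lost without AlloF8 replicate 2 (-1.41, limma adjusted p = 0.690) and with libraries rescaled to one median (adjusted p = 0.297).

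Between the dosage classes, each homoeolog of the members was higher in the class with more copies of its genome, while the ranges of the totals overlapped. On the log2 scale, T3A1 minus T1A3 was 1.25 to 1.93 for the T copies and -3.43 to -0.96 for the A copies. Between T3A1 and T1A3 (6 libraries each), the log2 difference in total was -0.86 for FSD1, -0.35 for CSD1, 0.02 for CSD2, 0.12 for CCS, -0.20 for BCB, 0.02 for COPT1 and 0.05 for CCH. The FSD1 value depended on single crosses: it was -2.15 without AATA and 0.43 without TAAA.

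The A homoeolog of FSD1 differed most. It had 2.24, 0.754 and 0.775 RPKM in TATT and 0.366, 0.983 and 0.731 RPKM in TTTA, and 34.1, 29.7 and 48.3 RPKM in TAAA and 3.14, 19.3 and 2.52 RPKM in AATA. Every T3A1 library was below every T1A3 library, with a log2 difference of -3.43. The T3A1 crosses carry 1 A genome and the T1A3 crosses 3. The A copies of CSD1, CCS, BCB and COPT1 were apart between the classes as well, while those of CSD2 and CCH overlapped. How many of all genes had A copies apart in this way was not counted. The T homoeolog of FSD1 had a log2 difference of 1.25, and its ranges overlapped.

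In the T3A1 crosses and in AlloF8, the T share of FSD1 was above the share of T genomes, and in the T1A3 crosses it was below it. It was 89.6%, 93.9% and 93.2% in TATT and 91.3%, 87.5% and 89.0% in TTTA, where 75% of the genomes are T. It was 13.1%, 18.6% and 15.1% in TAAA and 16.6%, 24.7% and 18.4% in AATA, where 25% of the genomes are T. By sample mean, 98.7% of genes had a lower T share than FSD1 in TATT and 96.1% in TTTA. In TAAA and AATA 16.8% and 32.8% of genes had a lower one, and the median over all genes, 23.3% and 23.5%, was also below 25%. FSD1 was thus less unusual in T1A3 than in T3A1. In AlloF8, where 50% are T, the mean of FSD1 was 83.5%, beside a median of 49.4% over all genes, and 98.2% of 13856 genes had a lower T share. In As, with the same balance of genomes, the mean T share of FSD1 was 44.8%, and 34.4% of genes had a lower one.

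Among the other members, the T share of CSD1 ran from 68.1% to 77.0% in the T3A1 libraries, from 15.7% to 20.8% in the T1A3 libraries, at 50.9% and 46.3% in As and at 51.1% and 44.7% in AlloF8. CSD2 ran from 65.1% to 74.3% in T3A1 and from 17.7% to 21.2% in T1A3, with 43.7% and 38.5% in As and 42.0% and 45.1% in AlloF8. Neither dismutase gene showed the shift between As and AlloF8 that FSD1 showed, although no test was made.

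CCS had a T share of 79.3% to 84.6% in T3A1, 27.1% to 41.7% in T1A3, 72.2% and 75.4% in As and 67.8% and 52.4% in AlloF8. The As mean of 73.8% was above that of 94.8% of genes, at totals near the lowest listed. COPT1 leaned to the A copy, with 57.9% to 61.2% in T3A1, 15.1% to 20.0% in T1A3, 45.2% and 44.3% in As and 37.3% and 32.7% in AlloF8. Its mean was above that of 8.54% of genes in TATT, 10.2% in TTTA and 12.3% in AlloF8. In TAAA, AATA and As it was above that of 25.3%, 32.4% and 34.2% of genes, so the lean was less unusual there.

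BCB had a T share of 70.8% to 79.5% in T3A1, 19.5% to 26.3% in T1A3, 54.4% and 40.8% in As and 45.2% and 48.8% in AlloF8. CCH had 72.1% to 81.2% in T3A1, 18.7% to 32.9% in T1A3, 60.1% and 57.8% in As and 56.7% and 45.1% in AlloF8. By sample mean, BCB was near the genome balance of 50% in As (47.6%) and in AlloF8 (47.0%). CCH was near it in AlloF8 (50.9%), while its mean in As of 58.9% was above that of 75.6% of genes.

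**Figure D3:**
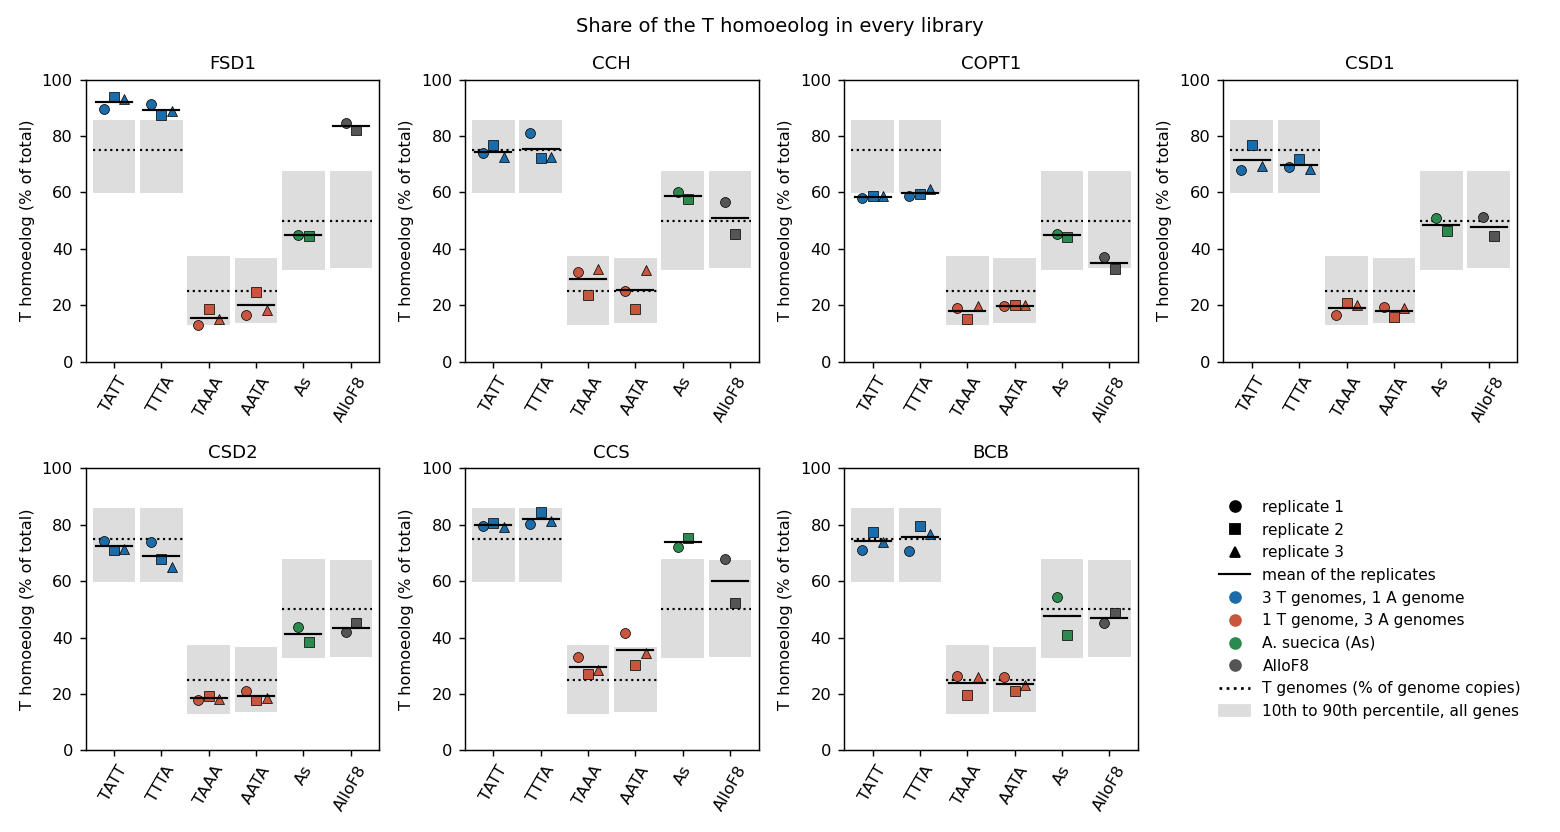
T share (% of the total from the T homoeolog) of the 7 genes in each library, by sample, with a bar at the mean of each sample, a dotted line at the share of T genomes and a grey band from the 10th to the 90th percentile of all genes. FSD1 in AlloF8, at 84.8% and 82.3%, lies above the other members, and in As it is at 44.9% and 44.7%.

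The order in which parents are named went with FSD1. Crosses with AlloF8 named first (TATT and TAAA) averaged 29.7 ± 17.8 RPKM and crosses with AlloF8 named second (TTTA and AATA) averaged 8.52 ± 8.55 RPKM (SD, n = 6 each), a log2 difference of 1.89. Within class, every TATT library was above every TTTA library, and every TAAA library was above every AATA library. Across classes the ranges overlapped, since AATA replicate 2 was above the TATT libraries. TATT minus TTTA was 1.24 on the log2 scale in the T copy of FSD1 and 0.49 in its A copy. TAAA minus AATA was 1.84 in the T copy and 2.63 in the A copy. In each class the larger difference thus lay in the copy carried in 3 genomes. The A copy was at 0.366 to 2.24 RPKM in T3A1 and the T copy at 0.569 to 6.31 RPKM in AATA. Adding 0.5 RPKM shrinks differences at such low values, so nothing is read from the order of the copies.

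For the other members the difference between crosses with AlloF8 named first and second was -0.27 for CSD1, -0.73 for CSD2, -0.10 for CCS, 0.50 for BCB, 0.04 for COPT1 and 0.63 for CCH. Taken across classes, all their ranges overlapped, as did those of FSD1. Within class, every TATT library of CSD1 was below every TTTA library, and every TAAA library of BCB was above every AATA library. How many of all genes were apart within class was not counted, so nothing is read from it, for FSD1 either. The labels do not name the mother, so a direction of crossing cannot be taken from these differences.

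Among the 24 other copper genes tested between T3A1 and T1A3 with the replicate block, limma called 9, 5 of them higher and 4 lower in T3A1. Of all 13479 genes, 38.3% were called, 16.9% higher and 21.4% lower, so the share among copper genes was near the background. The median log2 difference of the 24 was 0.11, beside -0.05 over all genes. On means of the crosses, 2 against 2, limma called 0 copper genes and 0 of all genes, with 8 and 3452 at an unadjusted p under 0.05.

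The genes that rose in T3A1 included CSD3 and the plastocyanin gene PETE2. CSD3 had 20.9, 17.7 and 20.9 RPKM in TATT and 26.7, 25.2 and 24.1 RPKM in TTTA, against 13.96, 5.58 and 9.52 RPKM in TAAA and 10.05, 11.3 and 11.4 RPKM in AATA (limma log2 difference 1.13 ± 0.17 SE, adjusted p = 0.00123). All T3A1 libraries were above all T1A3 libraries for CSD3. CUTA, a copper-binding chloroplast protein, had a log2 difference of 0.99 ± 0.13 (SE, limma adjusted p = 0.00076), and CSD3 and CUTA lost the call only on means of the crosses.

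PETE2 had a log2 difference of 0.81 ± 0.16 (SE, limma adjusted p = 0.00437), COX17-2, a copper carrier for cytochrome c oxidase, 0.48 ± 0.15 (adjusted p = 0.0287) and PAA1, the copper pump of the chloroplast envelope, 0.33 ± 0.10 (adjusted p = 0.0343). The genes that fell were RAN1, a copper pump that loads ethylene receptors (-0.80 ± 0.13, limma adjusted p = 0.00167), COX11 (-0.75 ± 0.15, adjusted p = 0.00452), HMA1, a metal pump of the chloroplast envelope (-0.57 ± 0.09, adjusted p = 0.00193), and HCC1 (-0.41 ± 0.10, adjusted p = 0.0133). COX11 and HCC1 act in the assembly of cytochrome c oxidase. These 7 calls were each lost under 2 to 9 of 16 alternatives. Without TAAA, limma gave an adjusted p of 0.0952 for RAN1, 0.167 for HCC1, 0.0621 for COX11, 0.0897 for PETE2 and 0.372 for PAA1. COX17-2 lost the call without TTTA (adjusted p = 0.0778), TATT (0.0525) or AATA (0.292), and PAA1 also without TTTA (0.134) or TATT (0.0792).

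FSD2, FSD3 and MSD1 did not differ beyond the threshold between T3A1 and T1A3, with log2 differences of 0.06, 0.18 and 0.04 and limma adjusted p of 0.761, 0.298 and 0.774. Of 7 iron genes tested, limma called 2, the ferritin gene FER4 (-1.04, adjusted p = 0.00102) and the nicotianamine synthase gene NAS4 (0.84, adjusted p = 0.00818). Both calls were lost without the replicate block (limma adjusted p = 0.131 for FER4 and 0.140 for NAS4), and that of NAS4 also without TATT (0.0501) or TAAA (0.116).

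Replicate number went with several members in the crosses. In all 4 crosses, replicate 2 had the lowest CSD2, at 0.266 to 0.677 of the mean of replicates 1 and 3, and the lowest CCS, at 0.354 to 0.838. In all 4 crosses replicate 2 had the highest CCH, at 1.38 to 2.39 times the mean of the others. CSD1 was lowest in replicate 2 in 3 crosses, and FSD1 was highest there in 2, at 0.743 to 7.46 times the mean of the others. Over 12174 genes, replicate 2 was outside both others in the same direction in all 4 crosses for 27.2%, with 15.1% above and 12.1% below.

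AlloF8 showed a like split between its libraries, with low CSD2 (103.3 RPKM) and CCS (5.98 RPKM) in replicate 1 and high values (973.3 and 30.4 RPKM) in replicate 2. For CCS this holds for the transcript used. AT1G12520.1 and AT1G12520.3 were less far apart in AlloF8, at 13.1 to 35.1 RPKM and 18.0 to 31.3 RPKM. FSD1 had 11.7 RPKM in AlloF8 replicate 1 and 5.62 RPKM in replicate 2, both far under As. No label links replicate 2 of the crosses with replicate 1 of AlloF8, and whether they share anything was not tested.

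Iron and copper genes were also tested for replicate number. The F test of limma on the replicate terms called 7 of 7 iron genes and 3 of 24 other copper genes, beside 22.9% of all 13479 genes. Since the lists were chosen with earlier results of these data known, the difference between these shares is not taken as support. FER1, the main leaf ferritin, had 22.5 RPKM in TATT, 20.9 RPKM in TTTA, 35.2 RPKM in TAAA and 14.1 RPKM in AATA in replicate 2, against 53.3 to 406 RPKM in replicates 1 and 3. It was lowest in replicate 2 of all 4 crosses (replicate 2 minus 1 on the log2 scale -3.23, limma adjusted p = 0.00383). The other ferritins, FER3 (-1.73, limma adjusted p = 0.0172) and FER4 (-1.55, adjusted p = 0.00181), were lower in replicate 2 too.

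OPT3, a phloem transporter of iron and copper, was highest in replicate 2, with 171 RPKM in TATT, 216 RPKM in TTTA, 85.6 RPKM in TAAA and 196 RPKM in AATA, against 29.3 to 48.6 RPKM in replicates 1 and 3 (replicate 2 minus 1 on the log2 scale 2.06, limma adjusted p = 0.000925). PYE, a transcription factor of iron deficiency (1.59, limma adjusted p = 0.00181), BTS, an E3 ligase that restrains that response (1.17, adjusted p = 0.00365), and NAS4 (1.25, adjusted p = 0.0107) were higher as well. The ferritins were thus lower, and genes known to rise under iron shortage higher, in replicate 2. The copper genes called were FRO3, a mitochondrial metalloreductase (1.80, limma adjusted p = 0.000999), ATX1, a chaperone related to CCH (1.00, adjusted p = 0.011), and HCC1 (0.47, adjusted p = 0.0231). HCC1 and FER3 lost the call without TATT, without AATA or without TAAA (limma adjusted p of 0.107 to 0.138 for HCC1 and 0.0769 to 0.0927 for FER3), and NAS4 without TATT (adjusted p = 0.0607). Of the other dismutases none was called, with adjusted p of 0.406 for CSD3, 0.581 for FSD2, 0.336 for FSD3 and 0.681 for MSD1.

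The same iron genes differed between the AlloF8 libraries, with 43.0 RPKM of FER1 in replicate 1 and 361 RPKM in replicate 2, and 201 and 25.1 RPKM of OPT3. In As, FER1 had 41.4 and 58.0 RPKM, OPT3 169 and 60.8 RPKM and FRO3 50.9 and 13.9 RPKM. OPT3 and FRO3 thus differed between the As replicates by more than FSD1, which had 289.1 and 323.8 RPKM there.

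**Figure D4:**
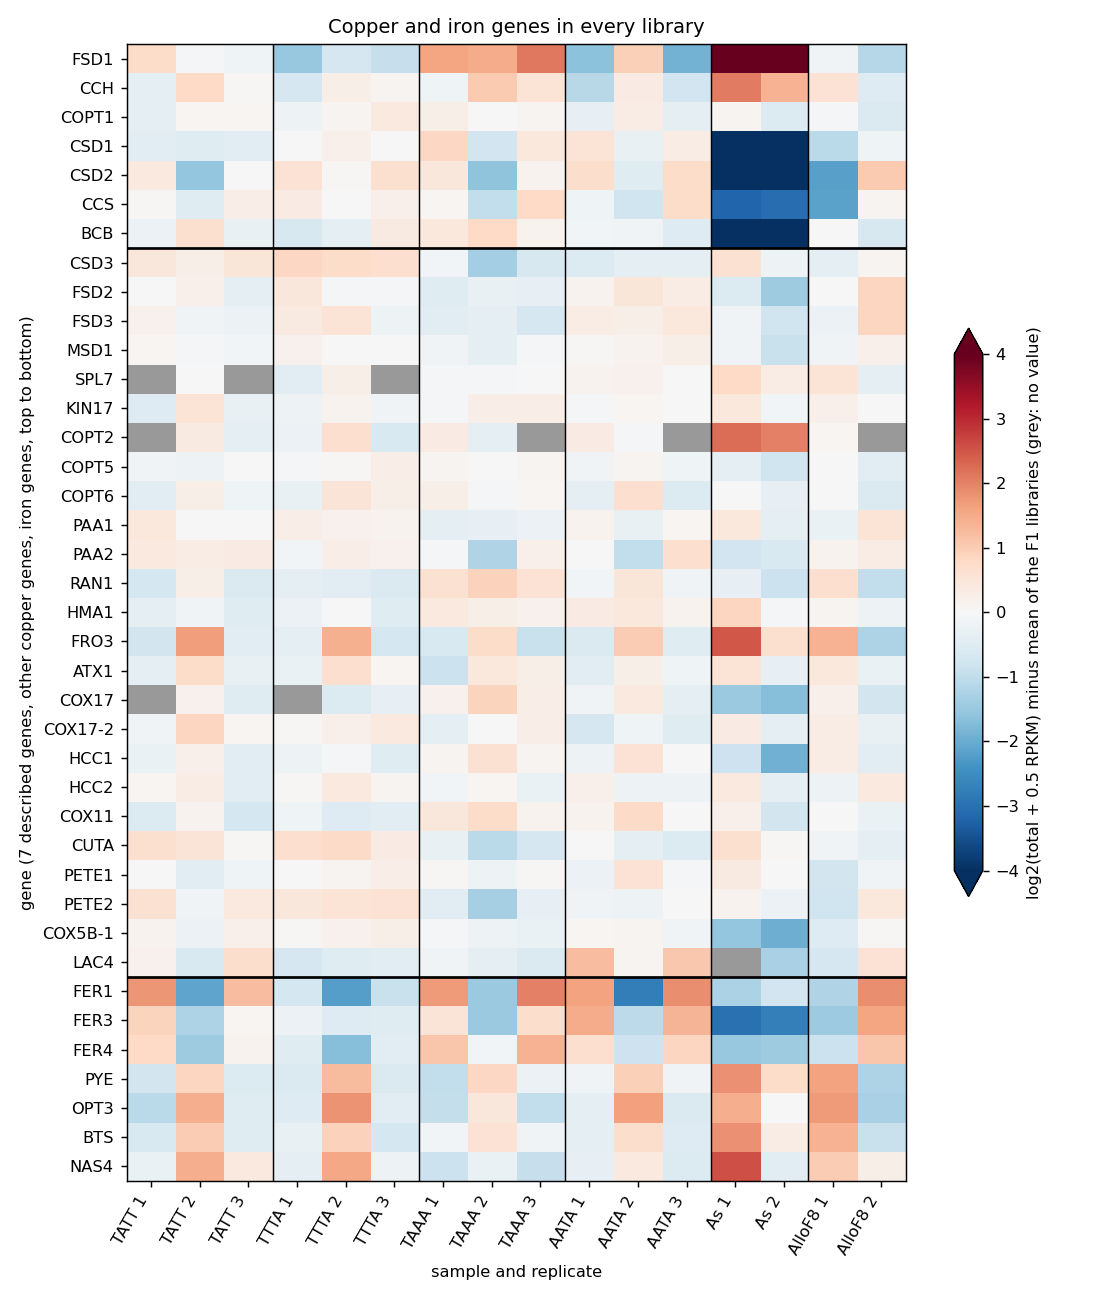
Level of the 7 members and of other copper and iron genes in each of the 16 libraries, as log2(RPKM + 0.5) minus the gene's mean over the 12 F1 libraries, in colour from blue (lower) to red (higher), with grey where a gene has no value. FSD1 and CCH are high and CSD1, CSD2, CCS and BCB low in both As columns, and FER1 is low and OPT3 high in replicate 2 of the 4 crosses.

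The members moved together in part. Over the 16 libraries, which share any effect of As and of replicate number, Pearson's r of log2 totals with FSD1 was 0.83 for CCH, -0.81 for CSD2, -0.77 for CSD1, -0.72 for BCB, -0.71 for CCS and 0.10 for COPT1. Without the As libraries, which are the 2 farthest from the median of FSD1, r was 0.65 for CCH, -0.38 for CSD2, -0.10 for CSD1, 0.59 for BCB, -0.18 for CCS and 0.49 for COPT1. The relations of FSD1 with CSD1, CCS and BCB rested on As, and that with BCB changed sign without it.

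Within the 12 F1 libraries, r was 0.74 between CSD2 and CCS, 0.70 between CSD1 and CSD2, -0.84 between CSD2 and CCH, 0.69 between BCB and CCH and 0.65 between FSD1 and CCH. FSD1 and CSD2 had an r of -0.44. Libraries with the same replicate number are not independent, so these are descriptions.

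Of 11513 other genes with a value in every library, those most like FSD1 by r were AT1G52870 (0.87), AT4G11570 (0.86), SADHU1-3 (0.86), AT2G30100 (0.86) and FLC (0.84). The annotation calls AT1G52870 a peroxisomal membrane protein of the Mpv17/PMP22 family, AT4G11570 a haloacid dehalogenase-like hydrolase, SADHU1-3 a retrotransposon and AT2G30100 a pentatricopeptide repeat protein, and FLC is the repressor of flowering. FLC had 113 to 173 RPKM in As, 20.7 to 23.9 RPKM in AlloF8 and 12.3 to 50.5 RPKM in the crosses, so it too was highest in As. CCH ranked at place 12.

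The genes most opposed to FSD1 were AT3G62870 (-0.92), RACK1B_AT (-0.91), AT4G10450 (-0.91), XTH4 (-0.91) and RPL5B (-0.90). AT3G62870, AT4G10450 and RPL5B are annotated as ribosomal proteins, RACK1B_AT as a receptor for activated C kinase, and XTH4 is an enzyme of the cell wall. XTH4 had 9.48 to 13.0 RPKM in As, 144 to 343 RPKM in AlloF8 and 106 to 271 RPKM in the crosses. Without As, r was 0.55 to 0.78 for the 5 most alike and -0.81 to -0.75 for the 5 most opposed.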

How the data were processed

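The authors deposited, for each of the 6 samples, a table of RPKM with a T and an A value per transcript and replicate. Genome build TAIR 9 is given per the submitters' processing notes. For the aligner, the assignment of reads to homoeologs and any filter, the method is not given in the sources used here. The tables hold 22890 transcripts of 17885 genes, and 98.99% of the gene codes were found in the TAIR10.1 annotation, from which names, loci and sequences were taken.

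Where a gene had several transcripts, the one with the highest mean stood for it. Pairs with T and A both at 0 (4.80% to 13.9% of a library) were treated as missing. None of the 301035 nonzero totals was under 2 RPKM. Depth is unknown, so no counting interval was computed.

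Log2 values were taken after adding 0.5 RPKM, and genes whose mean reached 1 RPKM entered the fits, which used limma 3.58.1 under R 4.3.3. Its moderated two-sided tests allowed a trend of the variance with the mean, and p-values were adjusted by Benjamini-Hochberg over all genes tested, with a threshold of 0.05. T3A1 was compared with T1A3 on 12 libraries with a mean per cross and replicate number as a block, replicate number was tested by an F test in the same fit, and As was compared with AlloF8 on 2 libraries each with no block. The block was used because same-numbered libraries of different crosses departed from their cross means in like ways (correlation 0.147 to 0.690 over 18 pairs, against -0.639 to 0.526 over 36 pairs with different numbers). This pairing comes from the data, and the labels say nothing of it.

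The search for microRNA sites counted mismatches and G-U pairs without gaps, in Python 3.11.15. The code was tested on simulated data. The members and the gene lists were chosen with earlier results of these data known. Besides the members, the named genes are the other dismutases, SPL7, up to 10 list genes past the threshold with the largest change (or F) per comparison, and the 5 genes most and least like FSD1; genes outside this rule are given as chosen after their values were seen. Alternatives were other pseudocounts, minimum means, transcripts, scaling, zeros, blocks and left-out libraries.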

Additional observations from a re-analysis of the deposited data

Results flagged for a closer look

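Of 28 groups of T shares and totals tested for a library far from the rest, 2 stood out, and chance flags about 1 in 20 groups. In TTTA replicate 2 the T share of CCS was 84.6%, the highest of the 6 T3A1 libraries, the other 5 of which lay between 79.3% and 81.2%. In TAAA replicate 2 the T share of COPT1 was 15.1%, the lowest of the 6 T1A3 libraries, the other 5 of which lay between 18.8% and 20.0%.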

How the results depend on the processing

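The FSD1 difference between As and AlloF8 was 5.15 on the log2 scale and ranged from 4.65 to 5.65 over 12 alternatives, lowest without AlloF8 replicate 2 and highest without AlloF8 replicate 1. Of the member differences under an alternative, 182 moved by less than the spread between replicates, and 2 moved further, both of FSD1 between T3A1 and T1A3, at -2.15 without AATA and, with the other sign, 0.43 without TAAA. Between T3A1 and T1A3, 9 copper genes and 5161 of all genes were called with the replicate block and 6 and 2903 without the replicate block. On means of crosses both counts were 0 (8 and 3452 at an unadjusted p under 0.05). Leaving out 1 replicate number gave 3 to 9 copper genes and 1500 to 5860 genes. Without TAAA the counts were 5 and 2087, and without TTTA 3220 genes were called. Rescaling libraries to one median gave 5223 genes, 2973 of them higher, against 2281 higher as deposited. By replicate number, 3 copper genes and 3082 genes were called. The number was 6 copper genes without TTTA, and over all genes 907 without TATT, 1091 without AATA and 1643 without TAAA. Between As and AlloF8, limma called 0 copper genes and 523 genes. With zeros taken as 0 these were 1 and 874, rescaling gave 7 genes, leaving out 1 library gave 168 to 308 genes, where the lone library is assumed to vary like the others, and the replicate block gave 0 copper genes and 588 genes. The causes were not tested. Depth is unknown, and genes near 2 RPKM, such as CCS in As, SPL7 and MIR398c in the crosses, are at the edge of what the tables list.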
